A study of Mus musculus with 4 samples.

Results

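The deposited comparison of 5-hydroxymethylcytosine (5hmC) between Hdac6 knockout and wild-type LSK cells was taken as a whole. All cytosine positions of the authors' 5hmC table that carry a knockout and a wild-type level were used, and each difference was taken as knockout minus wild type. This gave 71864 sites, of 125070 in the 5hmC and 5mC tables together. LSK cells are the lineage-negative, Sca-1-high, c-Kit-positive cells of bone marrow, which hold blood stem cells and early progenitors. The knockout cells came from mice lacking Hdac6, an X-linked gene for a lysine deacetylase that acts largely in the cytoplasm, and the wild-type cells from mice labelled as controls. Both groups were LSK cells sorted from bone marrow, with no treatment given in the labels. The labels give no age, sex, strain, knockout allele, number of pooled animals or tissue in which the gene was deleted. Each genotype had 1 oxidative bisulfite library (oxWGBS) and 1 bisulfite library (WGBS). In the labels the WGBS libraries carry sample number 1 and the oxWGBS libraries sample number 2. Whether the assays shared DNA or animals cannot be told from these numbers. With 1 library a genotype there is no replicate check of any difference below, and counts of sites describe these libraries and not the genotypes as populations. A table of 5hmC levels cannot check the sorted cell type by its marker genes.

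5hmC is made from 5-methylcytosine (5mC) by the TET enzymes, dioxygenases that need 2-oxoglutarate, iron and oxygen. It is an intermediate of active demethylation and is commonly found in gene bodies and at enhancers, and less at CpG-rich promoters. Bisulfite reads 5mC and 5hmC alike, while a prior oxidation removes 5hmC from the signal, so both measurements together can estimate it.

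The sites that the authors listed are a selection, and it shapes every share below. The smallest listed absolute difference was 10 percentage points and the largest p-value in the authors' deposited table was 0.00999952. The authors' p-values and q-values imply that 16223319 cytosines had been tested, so the list holds 0.443% of them. Levels were deposited as fractions and are given as percent. The libraries that gave a level are not named. A level or site described by the knockout or wild-type library therefore refers to the deposited level of that genotype. No file used here gives the reads behind a level, and read numbers were not worked out from the levels and p-values. Intervals in parentheses are 95% exact (Clopper-Pearson) intervals that cover the counting of sites only, and neighbouring sites are not independent.

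Promoter windows with several listed sites show what a listed position is and how such positions lie together. The windows below are RefSeq sequences of build GRCm38.p6, read along the gene from 250 bases before its start to 50 bases after it. Capitals mark the CpG dinucleotides that the authors listed. The windows of Tbx1 and Nap1l5 hold sites that were all higher in the knockout library. Those of Bhmg1, Dnah8 and Nradd hold sites that were all lower.
Tbx1, chr16:18588850-18589149, minus strand: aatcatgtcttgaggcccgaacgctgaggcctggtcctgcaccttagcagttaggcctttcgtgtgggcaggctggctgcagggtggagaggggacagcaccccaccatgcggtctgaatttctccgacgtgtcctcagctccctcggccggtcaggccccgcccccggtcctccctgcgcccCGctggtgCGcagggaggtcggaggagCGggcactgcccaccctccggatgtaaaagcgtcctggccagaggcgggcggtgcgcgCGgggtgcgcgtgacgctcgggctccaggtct
Nap1l5, chr6:58907077-58907376, minus strand: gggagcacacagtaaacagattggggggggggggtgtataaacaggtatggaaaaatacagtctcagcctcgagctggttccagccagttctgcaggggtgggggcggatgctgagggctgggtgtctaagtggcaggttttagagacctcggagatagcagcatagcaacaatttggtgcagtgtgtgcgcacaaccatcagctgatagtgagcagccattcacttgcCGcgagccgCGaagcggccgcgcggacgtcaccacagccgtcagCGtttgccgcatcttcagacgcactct
Bhmg1, chr7:19118295-19118594, minus strand: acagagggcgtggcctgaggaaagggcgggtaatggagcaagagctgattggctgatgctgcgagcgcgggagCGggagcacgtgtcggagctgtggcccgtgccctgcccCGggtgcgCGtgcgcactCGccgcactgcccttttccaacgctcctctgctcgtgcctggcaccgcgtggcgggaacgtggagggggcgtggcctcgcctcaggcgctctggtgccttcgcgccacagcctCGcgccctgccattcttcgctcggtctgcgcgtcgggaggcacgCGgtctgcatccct
Dnah8, chr17:30626686-30626985, plus strand: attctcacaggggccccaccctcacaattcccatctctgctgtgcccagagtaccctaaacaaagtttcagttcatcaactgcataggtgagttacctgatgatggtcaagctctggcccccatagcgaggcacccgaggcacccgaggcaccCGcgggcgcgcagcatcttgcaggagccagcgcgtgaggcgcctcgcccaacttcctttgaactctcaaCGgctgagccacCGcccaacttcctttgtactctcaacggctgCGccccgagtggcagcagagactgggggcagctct
Nradd, chr9:110624344-110624643, minus strand: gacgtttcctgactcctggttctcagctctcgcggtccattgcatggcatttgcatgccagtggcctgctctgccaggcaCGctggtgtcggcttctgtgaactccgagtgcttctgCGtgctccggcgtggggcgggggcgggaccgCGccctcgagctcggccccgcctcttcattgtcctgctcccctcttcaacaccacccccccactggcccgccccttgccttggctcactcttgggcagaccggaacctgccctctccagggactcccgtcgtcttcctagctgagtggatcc
In each window only some of the CpG were listed, 4 of 26 at Tbx1, 3 of 17 at Nap1l5, 6 of 35 at Bhmg1, 4 of 16 at Dnah8 and 3 of 20 at Nradd. The levels of these sites are given with the promoters.

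Most listed sites were near 0 in one genotype and well above it in the other. The way in which a level was made is not given. Whether a level of exactly 0 is a true absence or the floor of an estimate was not tested. The knockout level was exactly 0 at 21564 sites and the wild-type level at 37602 sites, so 59166 sites, or 82.3%, had one level at 0. At least one of both levels was 10% or less at 98.7% of the sites. Among sites above 0, the median level was 30.77% in the knockout library (50300 sites) and 22.45% in the wild-type library (34262 sites). Over all listed sites the mean level was 23.137% in knockout and 11.002% in wild type. High levels were also more frequent in the knockout library. A level above 50% was found at 6792 sites in knockout and at 1427 sites in wild type, and a level of 100% at 132 sites in knockout and 18 sites in wild type.

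Direction followed the wild-type level class closely, which the selection forces. A site at 0 in wild type can only be higher in knockout, and the 37602 such sites had a median knockout level of 30.77% (quartiles 22.73% and 42.86%). The 7985 sites at above 0 to 10% in wild type had a median of 36.67% in knockout and 3.85% in wild type. At above 10 to 30% in wild type only 4.19% of 16511 sites were higher in knockout, and the median knockout level was 0. At above 30 to 50% in wild type 8 of 8339 sites were higher, and at above 50% 1 of 1427 was. The class of sites with both levels above 10% was small, 928 sites, of which 701 were higher in knockout (75.5%; 72.6 to 78.3%). Of all listed sites 64.4% were higher in knockout, and of the 12698 sites with both levels above 0 the share was 68.2% (67.4 to 69.0%).

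**Figure D1:**
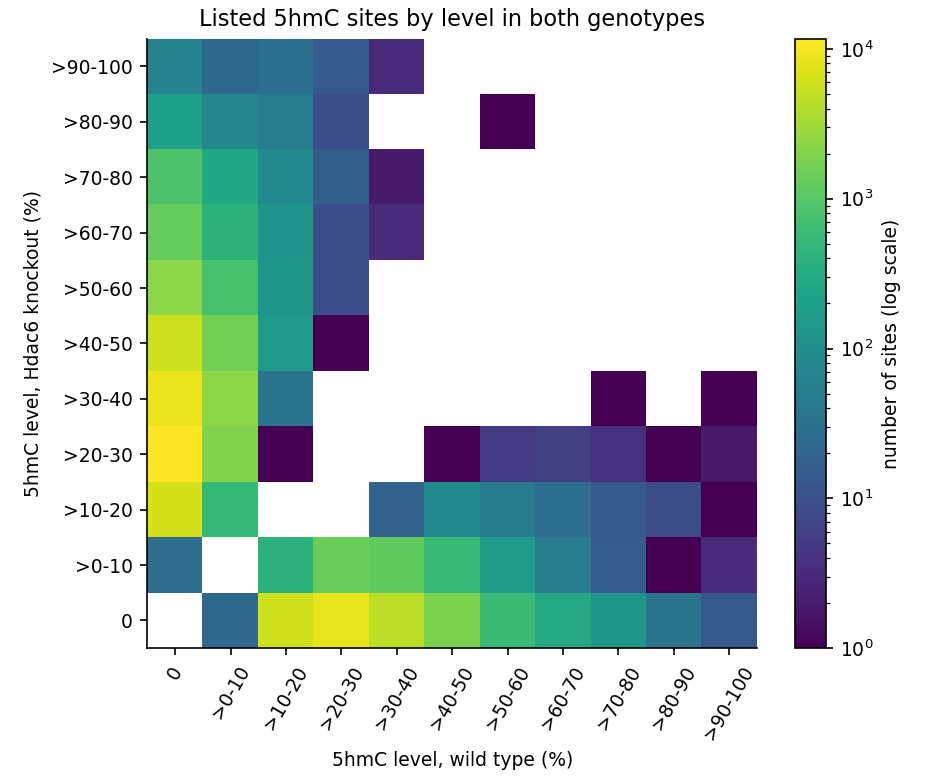
Number of listed 5hmC sites (colour, log scale) by level in the Hdac6 knockout library (vertical axis, %) and in the wild-type library (horizontal axis, %), in steps of 10 points with a step of its own for 0; white cells hold no site. Sites line both axes, with 21564 in the row at 0 in knockout and 37602 in the column at 0 in wild type, and the arm of high knockout levels is the fuller one.

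The excess of sites higher in knockout depended on the size of the difference. Among sites that differed by 10 to 20 points, 6646 were higher and 6105 lower, a share of 52.1% (51.2 to 53.0%). The share was 59.0% at 20 to 30 points, 65.7% at 30 to 40 points, 73.7% at 40 to 50 points and 81.4% (80.3 to 82.4%) at 50 to 60 points. It was 87.1% at 60 to 70 points, 81.9% at 70 to 80 points, 90.7% at 80 to 90 points and 84.0% at 90 to 100 points, where 106 sites remained. The smallest listed differences were thus nearly balanced and the largest were mostly gains in knockout. A difference of 50 points or more was found at 8240 of the higher sites (17.8%) and at 1611 of the lower sites (6.29%). The median absolute difference was 31.25 points at higher sites and 26.19 points at lower sites.

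The share also increased with size in subsets of the list, up to the class of 80 to 90 points. Among sites with p under 0.001 in the authors' deposited table, the share higher in knockout was 50.8% at 10 to 20 points, 94.1% at 80 to 90 points and 90.5% (57 of 63 sites) at 90 to 100 points. Among sites above 0 in both libraries it was 56.4% at 10 to 20 points, 97.1% (34 of 35 sites) at 80 to 90 points and 88.5% (23 of 26 sites) at 90 to 100 points. The mean of the knockout and the wild-type level, which treats both genotypes alike, gave the same picture. The share was 51.8% at a mean of 5 to 10%, 90.3% at a mean of 40 to 50% and 84.7% (172 of 203 sites) above that. Over the sites with a mean of 10 to 90% it was 66.8% (66.4 to 67.2%). The files used here hold no read numbers, and the depth of the libraries was not compared. The part of read depth in these shares was not tested.

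**Figure D2:**
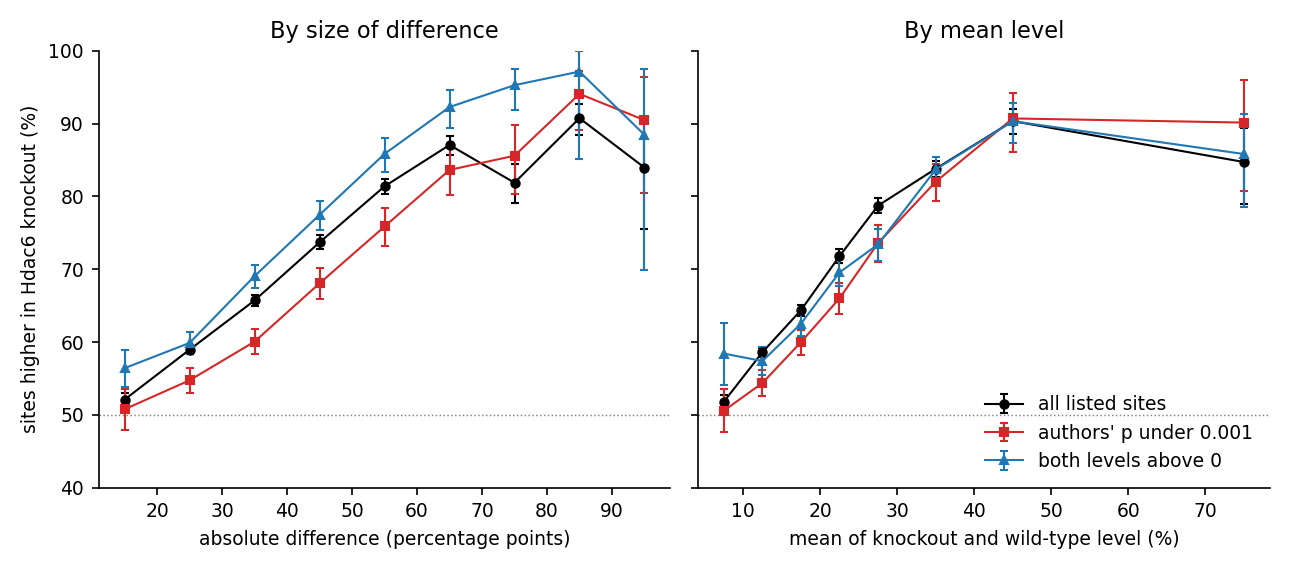
Share of listed 5hmC sites higher in the Hdac6 knockout library (vertical axes, %, from 40 to 100) by absolute difference (left, percentage points) and by the mean of both levels (right, %), for all sites, sites with the authors' p under 0.001 and sites above 0 in both libraries. Points stand at the middle of each class, bars are 95% exact intervals over sites and the dotted line is 50%; the share is 52.1% at 10 to 20 points and 81.4% at 50 to 60 points over all sites.

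By the authors' q-value few sites stood out. A q under 0.05 was given to 779 sites (1.08%) in the authors' deposited table, of which 60.6% (57.1 to 64.0%) were higher in knockout. Of these, 202 lay on unplaced scaffolds or in 21 windows of 100 kb that held 5 or more of them, and they had a median absolute difference of 20.5 points, with 132 higher and 70 lower in knockout (65.3%; 58.3 to 71.9%). The other 577 sites of the authors' deposited table with q under 0.05 had a median absolute difference of 39.39 points, and 340 were higher and 237 lower in knockout (58.9%; 54.8 to 63.0%). Their higher sites had medians of 41.18% in knockout and 0 in wild type, and their lower sites had medians of 0 in knockout and 38.1% in wild type.

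Listed sites were mostly far apart, and close ones shared a direction. The median distance to the nearest listed site was 5026 bp, 21.6% of the sites had another within 500 bp and 8.67% within 50 bp. No pair lay 1 bp apart, so both strands of one CpG were never listed separately. Of consecutive sites 1 to 2 bp apart 97.7% had the same direction (170 of 174 pairs), and of those 3 to 5 bp apart 98.1%. Agreement was 95.5% at 6 to 10 bp, 93.3% at 11 to 20 bp, 86.4% at 21 to 50 bp, 74.4% at 51 to 100 bp and 60.4% at over 100 to 200 bp. At over 200 to 500 bp it was 53.4% (51.4 to 55.4%), about the 54.1% that unrelated pairs would have at the overall share of higher sites. Over all 9051 pairs up to 500 bp apart, 73.2% agreed. Close pairs can lie on the same sequenced fragments, so agreement within a pair is no repeat measurement.

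**Figure D3:**
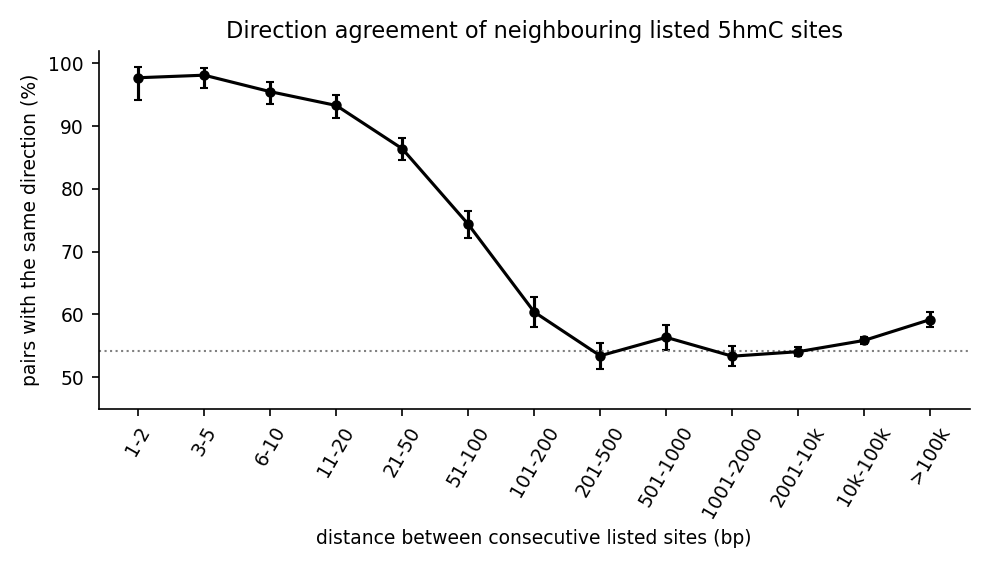
Share of consecutive listed 5hmC sites with the same direction in Hdac6 knockout against wild type (vertical axis, %, from 45) by the distance between them (horizontal axis, bp). Bars are 95% exact intervals over pairs, and the dotted line at 54.1% is the agreement of pairs drawn at the overall share; agreement is 97.7% at 1 to 2 bp and 53.4% at over 200 to 500 bp.

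Close groups of sites were also more balanced in direction than single sites. Joining sites with gaps of up to 200 bp left 60259 single sites, of which 66.2% (65.8 to 66.6%) were higher in knockout. Among groups of 2 sites with one direction 60.4% (58.6 to 62.1%) were higher, among groups of 3 sites 52.3% and among groups of 4 sites 45.5% (35.9 to 55.2%). The 169 groups of 5 or more sites comprised 59 all higher, 56 all lower and 54 mixed. In agreeing pairs up to 2 bp apart 86 were both higher and 84 both lower. In agreeing pairs over 100 kb apart 85.1% were both higher, but agreement between unrelated sites by itself favours the more frequent direction. Of all 6766 pairs over 100 kb apart, 3409 were both higher, 595 both lower and 2762 opposite.

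The largest groups ran in both directions, and those named here were chosen after their values were seen. A gene is named where a group lay inside it or within 2000 bp of it. The group with the most sites, 26 within 149 bp on chromosome 12 (33780920 to 33781068), lay in no gene and was lower throughout, at 0 to 2.22% in knockout and 19.05 to 36.67% in wild type. Norad, a long non-coding RNA that binds Pumilio proteins, had 21 sites in 356 bp, at 0 to 1.72% in knockout and 10.17 to 20% in wild type. Kcnq1ot1, the imprinted antisense transcript inside Kcnq1, had 21 sites at 0 in knockout and at 11.76 to 36% in wild type. In the other direction Dgkg, a diacylglycerol kinase gene, had 19 sites in 135 bp at 20 to 43.59% in knockout and 0 in wild type. Near H4c17, a histone H4 gene, 12 sites in 116 bp were at 16.67 to 35.71% in knockout and 0 in wild type. All of them lay outside the gene itself. Cth, which encodes the cysteine-forming enzyme cystathionine gamma-lyase, had 12 sites at 10 to 20.22% in knockout and 0 to 1.89% in wild type. Both directions could occur at one gene. Mest, an imprinted gene, had a group of 7 sites at 17.65 to 55% in knockout and 0 in wild type. Another group there had 5 sites at 0 in knockout and 28 to 30.77% in wild type.

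The share of sites higher in knockout was lowest around gene starts and increased with distance from them. Sites were placed against the gene table of GRCm38, as 13720 near a gene end (within 2000 bp of either end), 31028 further inside genes, 26770 between genes and 346 on unplaced scaffolds. The share higher in knockout was 59.6% (58.8 to 60.4%) near gene ends, 63.5% (63.0 to 64.0%) further inside genes and 67.8% (67.2 to 68.3%) between genes. The median absolute difference was 29.02 points at higher and 24.89 points at lower sites near gene ends, and 33.33 points at higher and 26.92 points at lower sites between genes. Within 500 bp of a start 56.5% (54.6 to 58.4%) of 2590 sites were higher, and over 100 kb from any start 69.5% (68.6 to 70.4%) of 10198 sites were. The lowest share, 54.9% (51.3 to 58.5%), was found from the start to 250 bp downstream. Differences were smaller there too, with a median absolute difference of 25.81 points within 500 bp of a start and 32.06 points over 100 kb away. The contrast with distance remained within classes of size. Of sites that differed by 10 to 20 points 48.0% (45.6 to 50.4%) were higher within 2 kb of a start and 52.9% (51.1 to 54.7%) over 50 kb away. Of those that differed by 50 points or more 80.2% (77.2 to 83.1%) were higher within 2 kb and 84.9% (83.7 to 86.1%) over 50 kb away.

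**Figure D4:**
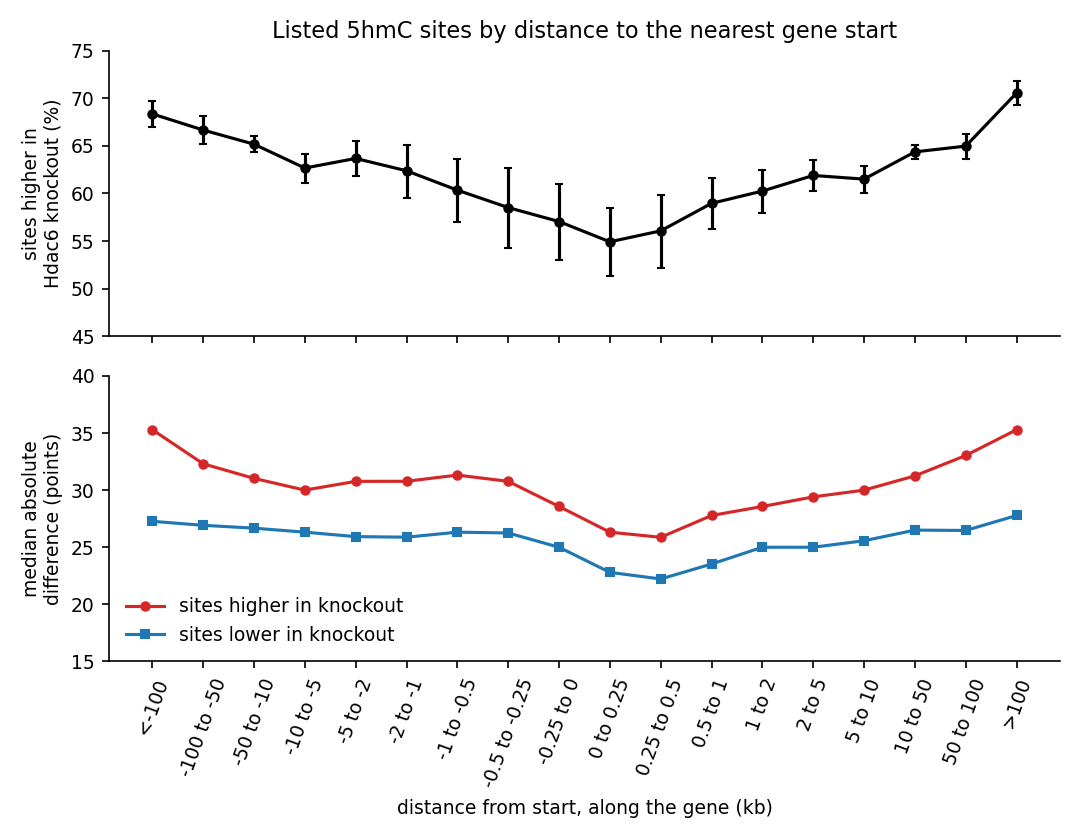
Listed 5hmC sites by signed distance from the nearest gene start (horizontal axis, kb, negative before the start). The upper panel gives the share higher in the Hdac6 knockout library (vertical axis, %, from 45 to 75, with 95% exact intervals over sites), lowest at 54.9% just after the start; the lower panel gives the median absolute difference (points, from 15 to 40) of sites higher and of sites lower in knockout.

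CpG-poor promoters held most of the listed promoter sites. The 32851 promoter windows of 300 bases, from 27025 genes, held 361339 CpG and 781 listed sites, in 732 windows of 680 genes. No window was at hand for chromosome 18, which holds 2285 listed sites. Of the CpG in windows with 1 to 10 CpG, 7.47 per 1000 were listed (6.84 to 8.15), and 62.5% (58.1 to 66.7%) of these 509 sites were higher in knockout. Windows with 11 to 15 CpG had 3.45 listed sites per 1000 CpG. Windows with 16 or more CpG had 0.599 per 1000 (0.509 to 0.701), and of these 156 sites 69 were higher and 87 lower in knockout (44.2% higher; 36.3 to 52.4%). In the windows with over 30 CpG, the densest class, 11 sites were higher and 18 lower. The share of tested CpG in each class is not known, so a low count of listed sites can also mean few tested ones.

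**Figure D5:**
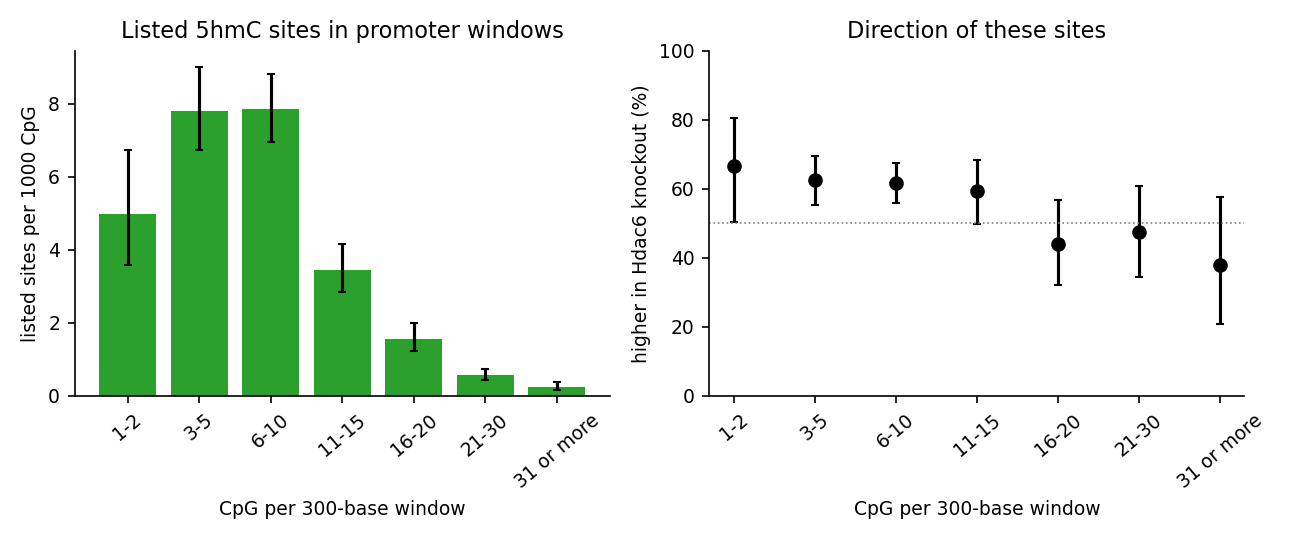
Listed 5hmC sites in 300-base promoter windows by the number of CpG in the window (horizontal axes). The left bars give listed sites per 1000 CpG (7.47 over the windows with 1 to 10 CpG and 0.599 over those with 16 or more), and the right points give the share of them higher in the Hdac6 knockout library (%), with 95% exact intervals over sites and a dotted line at 50%.

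Of the protein-coding genes with 2 or more listed sites in a window and one direction, 16 windows were all higher and 18 all lower in knockout. In the window of Tbx1, which encodes a T-box transcription factor of the developing heart and pharynx, the 4 sites had levels of 19.15%, 27.66%, 24% and 25% in knockout, against 0, 6.25%, 2.13% and 0 in wild type. Every knockout level there was above every wild-type level, which the choice of windows with one direction makes likely. Nap1l5, an imprinted gene related to nucleosome assembly proteins, had 19.05%, 23.33% and 20.69% in knockout, against 0 at all 3 sites in wild type. Gnas, which encodes the stimulatory G protein alpha subunit, had 15.38%, 16.67% and 13.95% in knockout, against 0 at all 3 sites in wild type. Inside or within 2000 bp of the whole gene, Gnas had 14 higher and 15 lower sites. Mgl2, a macrophage lectin gene, and Ak1, an adenylate kinase gene, had 2 higher sites each, with means of 50% in knockout and 2.94% in wild type at Mgl2. At Ak1 the means were 54.3% in knockout and 11.2% in wild type. Amer2, whose product recruits APC to membranes, had 2 higher sites, with means of 35.4% in knockout and 1.78% in wild type.

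Among the windows that were lower in knockout, the one with the most sites was that of Bhmg1. Bhmg1, a gene of meiotic entry, had 6 sites at 0 in knockout, against 13.46%, 16%, 21.62%, 19.44%, 30.56% and 20.51% in wild type. Dnah8, a dynein heavy chain of the sperm tail, had 0, 0, 2.5% and 0 in knockout, against 26.92%, 17.95%, 25.64% and 22.22% in wild type. Rbm46, a germ-cell RNA-binding protein gene, had 3 sites with means of 0 in knockout and 18.8% in wild type. Nradd, a relative of the neurotrophin receptor, had 0, 0 and 3.7% in knockout, against 34.48%, 37.84% and 36.59% in wild type. Ano2, a calcium-activated chloride channel gene, had 0, 2.94% and 0 in knockout, against 20.45%, 26.32% and 35% in wild type. Inside or within 2000 bp of the gene, Ano2 had 8 higher and 5 lower sites, and Dnah8 6 higher and 9 lower. One higher site of Ano2, outside the window, was at 85.71% in knockout and 0 in wild type (q = 0.0412 in the authors' deposited table). 4930447C04Rik had 3 sites with means of 0 in knockout and 34.6% in wild type. In each of these windows no knockout level reached the lowest wild-type level. This largely follows from choosing windows with one direction among sites that differ by at least 10 points. No site in these 12 windows had q under 0.05 in the authors' deposited table, the smallest p there being 1.62e-05, at 4930447C04Rik.

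Of 21887 protein-coding genes, 11754 (53.7%) had a listed site inside or within 2000 bp, 38100 sites in all, of which 61.8% were higher in knockout. The genes with the most sites were large or part of a nested cluster. Gm37013, Gm38666, Gm38667, Pcdha1, Pcdhga1 and Pcdhga2 overlap at the protocadherin clusters and share sites. Gm37013, the widest of them, had 59 higher and 90 lower sites. Gse1 had 42 higher and 43 lower sites, with medians at the higher sites of 27.35% in knockout and 0 in wild type. Camta1, a calmodulin-binding transcription activator gene, had 53 higher and 24 lower sites. Rbfox3, which encodes a neuronal splicing factor, had 40 higher and 29 lower sites, and Zfp978, a zinc finger gene, 39 higher and 18 lower.

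Genes whose listed sites all had one direction were mostly higher. Of the 3366 protein-coding genes with 4 or more listed sites, 302 were higher at all of them and 67 lower at all of them. Since 61.8% of the sites at protein-coding genes were higher, unrelated sites would also give more genes of the first kind. The 11 sites shared by Ugt1a10, Ugt1a6b, Ugt1a7c and Ugt1a8, overlapping forms of the UDP-glucuronosyltransferase 1A locus, were at 11.86 to 56.25% in knockout and 0 to 6.32% in wild type. Cdkn1c, which encodes the cell cycle inhibitor p57 and is imprinted, had 18 sites, at 0 to 4.17% in knockout and 15.79 to 34.78% in wild type. Gimap1, a GTPase gene of lymphocytes, had 9 sites at 0 to 3.85% in knockout and 12.82 to 43.48% in wild type. Dhx35, a helicase gene, had 9 sites close together, at 0 to 4.48% in knockout and 13.82 to 44.19% in wild type. Arhgef12, a guanine nucleotide exchange factor gene, had 8 sites, 6 of them in 252 bp, at 0 to 6.9% in knockout and 27.27 to 40% in wild type. Pigk, of the GPI transamidase complex, had 7 sites at 0 to 3.23% in knockout and 19.23 to 31.25% in wild type. Pcdhb22, a protocadherin, had 13 lower sites. At each of these genes the knockout and wild-type levels did not overlap. The selection largely fixes this, since the genes were picked for one direction among sites that differ by at least 10 points.

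Of the genes with the smallest q-values among higher sites, Sfi1 and Tcf7l2 had sites of both directions and the others named here only higher ones. Those with the smallest q among lower sites, given next, had both directions. The authors' q-values depend on read numbers too, which are not given, so this order is not one of difference size. The part of read depth in it was not tested. At Gphn, which encodes the inhibitory synapse scaffold gephyrin, a site was at 35.83% in knockout and 11.08% in wild type (q = 7.76e-92 in the authors' deposited table), and its 2 sites were both higher. At Sfi1, a centrosomal protein gene, a site was at 45.76% in knockout and 0.64% in wild type (q = 7.93e-60 in the authors' deposited table), and Sfi1 had 16 higher and 9 lower sites in all. At Abcg2, an efflux transporter gene active in blood stem cells, a site was at 65.82% in knockout and 0 in wild type (q = 7.49e-15 in the authors' deposited table), and its 4 sites were all higher. At Tcf7l2, a transcription factor gene of the Wnt pathway, a site was at 65.66% in knockout and 1.59% in wild type (q = 7.67e-14 in the authors' deposited table), with 6 sites higher and 6 lower in all. Ranbp3l, a Ran-binding protein gene, was higher at all 5 of its sites. Its site with the smallest q was at only 15.91% in knockout and 0 in wild type. Ugt1a1 and Ugt1a2 shared 9 higher sites with the forms above.

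Among lower sites, the smallest q belonged to Sfi1 as well, at a site with 3.68% in knockout and 40.39% in wild type (q = 8.7e-48 in the authors' deposited table). Kctd16, a subunit of GABA-B receptors, had a lower site at 1.84% in knockout and 27.74% in wild type (q = 3.85e-29 in the authors' deposited table). At Mid1, an X-linked ubiquitin ligase gene, a site was at 0 in knockout and 18.63% in wild type (q = 3.43e-17 in the authors' deposited table), although 9 of its 11 sites were higher. Itgad, an integrin alpha subunit gene, had a site at 3.85% in knockout and 29.39% in wild type (q = 5.87e-16 in the authors' deposited table), and close by one at 46.36% in knockout and 1.83% in wild type. At Mroh2a, 22 sites were higher and 11 lower in knockout. Vps45, of vesicle transport, had 2 higher and 2 lower sites. Its site with the smallest q was at 0.35% in knockout and 11.35% in wild type. Gm51573 had 1 higher and 2 lower sites, and Gm40369 had 3 higher and 4 lower.

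Gene lists for the cell types and for the chemistry of 5hmC were read against the 61.8% of sites higher over all protein-coding genes. Of all protein-coding genes 53.7% had a listed site. Stem cell genes had sites at 29 of 34 members, and 153 of 258 sites were higher (59.3%; 53.0 to 65.4%). Msi2, an RNA-binding regulator of stem cells, had 26 higher and 23 lower sites. Etv6, a transcription factor gene needed for adult stem cells, had 26 higher and 16 lower, among them a site at 30.77% in knockout and 0 in wild type (q = 0.0246 in the authors' deposited table). Prdm16, a stem cell regulator, had 23 higher and 17 lower sites, of which 9 consecutive lower ones lay in 140 bp, with means of 3.26% in knockout and 33.2% in wild type. Mecom had 5 higher and 3 lower sites and Flt3, the progenitor receptor, 5 higher and 4 lower. The largest gain at Mecom was a site at 85.71% in knockout and 0 in wild type.

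Myeloid genes had sites at 17 of 30 members, with 33 of 56 higher (58.9%; 44.98 to 71.9%). The myeloid share rested on Gfi1, a repressor of myeloid and stem cell genes, whose 11 higher sites lay in a group of 12 that spanned 278 bp, at 14.29 to 31.71% in knockout and 0 to 1.92% in wild type. Sites within 200 bp were also counted as 1 place, a count added after the values were seen. Of 39 myeloid places 18 were all higher, 18 all lower and 3 mixed. The Gfi1 group of 12 was among the mixed ones, with 11 sites higher. Spi1, which encodes the myeloid master factor PU.1, went the other way, with 1 higher and 5 lower sites, the lower ones at 0 to 3.85% in knockout and 14.29 to 30.95% in wild type. Csf1r and Csf2ra, receptor genes of myeloid growth factors, each had 2 higher and 3 lower sites. Ltf, a granule protein gene, had 1 site in each direction, and Ly6g, a neutrophil surface marker, 1 higher site at 50% in knockout and 0 in wild type.

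Erythroid and megakaryocyte genes had sites at 18 of 30 members, with 60 of 99 higher (60.6%; 50.3 to 70.3%). Ank1, the red cell ankyrin gene, had 15 higher and 2 lower sites. Epb41, another membrane skeleton gene, had 6 higher and 3 lower, and Zfpm1, which encodes the GATA1 partner FOG1, 7 of each. Bcl11a, the repressor of fetal globin, had 4 higher and 7 lower sites, and Myb 1 higher and 4 lower. Lymphoid genes had sites at 20 of 32 members, with 42 of 75 higher (56.0%; 44.1 to 67.5%). Pax5, the B cell commitment factor gene, had 10 higher and 4 lower sites, one at 48% in knockout and 0 in wild type (q = 0.0453 in the authors' deposited table). Bcl11b, its counterpart for T cells, had 9 higher and 4 lower, Ebf1 5 higher and 2 lower, and Ikzf1 6 higher and 1 lower. Rag1 had 1 site, at 57.14% in knockout and 0 in wild type. Genes of marrow stroma, endothelium and bone had sites at 17 of 22 members, with 34 of 65 higher (52.3%; 39.5 to 64.9%). Runx2, the bone master regulator, had 9 higher and 9 lower sites, one at 0 in knockout and 65.38% in wild type (q = 8.83e-05 in the authors' deposited table). Pdgfrb had 6 higher and 5 lower sites and Pecam1 5 higher and 3 lower. These intervals all contain 61.8%.

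Genes of 2-oxoglutarate metabolism, whose products make, use or act beside this cosubstrate of TET enzymes, had the highest share among the 9 lists. They had sites at 14 of 32 members (43.8%), and 31 of 36 sites were higher in knockout (86.1%; 70.5 to 95.3%). The sites were no denser than elsewhere, at 35.5 per Mb, against 36.7 per Mb over all protein-coding genes. The median signed difference, knockout minus wild type over higher and lower sites together, was 23.96 points against 21.03 points. A larger share of higher sites raises this median by itself, so it does not show larger differences at these genes. At 11 genes every listed site was higher, at 1 every site was lower and at 2 both directions occurred. Of the 11754 protein-coding genes with a listed site, 4635 were higher at every site, 2173 were lower at every site and 4946 had both directions. Idh2, the mitochondrial isocitrate dehydrogenase gene that makes 2-oxoglutarate, had 4 sites, at 18.52%, 15.91%, 23.53% and 30.43% in knockout and 0 in wild type. Sdhb, of succinate dehydrogenase, had 4 sites at 21.62 to 42.11% in knockout and 0 in wild type. Phgdh, of serine synthesis, had 3 sites at 27.27 to 45% in knockout and 0 to 3.57% in wild type. Bcat2, a branched-chain aminotransferase gene, had 1 site at 44.44% in knockout and 3.45% in wild type, and Bcat1 and Psat1 had 3 higher sites each. Lower sites were found at Ogdh, of the 2-oxoglutarate dehydrogenase complex, with 2 lower sites, and D2hgdh, which clears 2-hydroxyglutarate, with 3 higher and 2 lower. Adhfe1 had 5 higher sites in a stretch of 165 bp that also lies at Rrs1, and 1 lower site further on. Counted as places, 24 were higher and 4 lower (85.7%; 67.3 to 96.0%). Idh1 had no listed site, no site of this list had q under 0.05 in the authors' deposited table, and the list was chosen with earlier results of these data in view.

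Genes of DNA methylation and demethylation had sites at 11 of 23 members, with 23 of 38 higher (60.5%; 43.4 to 76.0%). Dnmt3a, a de novo methyltransferase gene often mutated in blood disorders, had 9 higher and 6 lower sites. Tet3 had 4 higher and 2 lower sites and Tet1 2 of each, while Tet2 had none listed. Dnmt1 and Dnmt3b had 1 site in each direction, the lower ones at 0 in knockout and 71.43% in wild type at Dnmt1, and at 9.09% in knockout and 66.67% in wild type at Dnmt3b. Gadd45a had 1 site, at 50% in knockout and 0 in wild type. Acetylation enzymes had sites at 20 of 30 members, with 52 of 91 higher (57.1%; 46.3 to 67.5%). Hdac7 had 11 higher and 3 lower sites, Hdac4 6 higher and 4 lower, and Sirt3 2 of each. At Hdac7 7 of the higher sites lay in 45 bp, at 19.05 to 26.19% in knockout and 0 in wild type. Hdac6 itself had 2 sites 2 bp apart, at 0 and 9.52% in knockout and 63.16% and 55.56% in wild type. They do not check the knockout, since the deleted part of the gene is not given. Long neuronal genes, a comparison for gene length, had sites at 23 of 24 members, with 220 of 316 higher (69.6%; 64.2 to 74.6%), an interval that also lies above 61.8%, and sites were sparse there, at 8.40 per Mb. Cdh13 had 32 higher and 13 lower sites, Dpp6 18 higher and 6 lower, Csmd1 17 higher and 5 lower, and Lsamp 8 higher and 7 lower.

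Sites listed for both marks moved in opposite directions. Of the 5hmC sites 12608 were also in the 5mC table (17.5% of the 5hmC list and 23.7% of the 5mC list), and at 12594 of them the signs were opposite. The 5hmC and 5mC levels there summed to a median of 92.49% in knockout and 93.34% in wild type. The libraries behind each mark's level are not named in the files, so opposite signs may not be independent. The oxWGBS and WGBS libraries also carry different sample numbers, so shared DNA cannot be assumed. The 5hmC level was higher in knockout at 71.6% of the shared sites and at 62.8% of the other 5hmC sites.

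Few listed sites fell in microRNA hairpins, 11 of the 1005 hairpins of the RefSeq table. The only one with 2 sites was Mir135a-1, shown here as its RNA with both listed CpG in capitals.
Mir135a-1 hairpin, chr9:106154124-106154213, plus strand: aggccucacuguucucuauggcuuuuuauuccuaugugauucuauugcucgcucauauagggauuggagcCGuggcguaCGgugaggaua
Its mature 3p arm, which covers the first of these CpG, follows with the seed (bases 2 to 8) in capitals.
mmu-miR-135a-1-3p: uAUAGGGAuuggagccguggcg
The first site was at 36.36% in knockout and 0 in wild type, and the second at 26.09% in knockout and 2.44% in wild type. The overlapping hairpins Mir497 and Mir497b share 1 site, at 80% in knockout and 0 in wild type. Mir292 and Mir292b share 1 site, at 0 in knockout and 21.05% in wild type, the only lower site found in a hairpin.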

How the data were processed

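Genomic DNA of LSK cells was sequenced from 1 oxidative bisulfite and 1 bisulfite library of each genotype. Per the labels' protocols, sonicated DNA with a lambda spike-in was given methylated adapters, converted with bisulfite and amplified. Not given in the sources used here were the aligner, methylation caller, statistical test, coverage filter and the way in which the libraries gave a 5hmC level. Per the file headers, the deposited table gives for each position a wild-type and a knockout level, which are fractions computed by the authors, their difference, and the authors' p-value and q-value. The number of cytosines tested was recovered from p and q, as the number that makes p times the number of tests over q a whole rank (95.7% of 3574 distinct q-values, within 0.001).

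The submitters' processing notes name GRCm39, while the only tables at hand were of GRCm38. Of the listed positions read against GRCm38 promoter windows 776 of 776 fell on the C of a CpG on the plus strand, and none did after a shift by 1 base to either side, so positions were used as GRCm38. Differences were taken as knockout minus wild type. Sites were assigned to RefSeq genes inside or within 2000 bp. Python 3.11.15, numpy 2.4.6, pandas 2.3.3 and scipy 1.17.1 were used, and the scripts were tested on simulated data. No test between the genotypes was computed, since each has 1 library. The named genes were the 10 with the most sites, the 8 with the smallest q in each direction, the 6 in each direction with 4 or more sites of one direction, up to 6 promoter windows in each direction, and up to 3 members of each list by number of sites and 3 by largest difference. Some genes that the rule names are not reported here. The sites, lists and rules were chosen with earlier results of these data known. Alternatives were a larger difference, a smaller p, sites above 0 in both libraries, other pair distances, other gene end lengths, autosomes only and merged sites.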

Additional observations from a re-analysis of the deposited data

How the results depend on the processing

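Alternatives were run for the share of sites with a mean of 10 to 90% higher in knockout (66.8% as reported), the median differences, the agreement of neighbours, and the share higher near gene ends (59.6%), inside genes (63.5%) and between genes (67.8%). These shares stayed above 50% under each of them, while the shares by start distance, promoter CpG, group size and q were given no alternative. With a difference of at least 30 points the first share was 72.8%, the median absolute difference 41.67 points at higher and 37.42 points at lower sites, the agreement of neighbours 80.8%, and the share higher 69.5% near gene ends, 71.6% inside genes and 75.4% between genes. With p under 0.001 these values were 63.7%, 35.48 points, 30.3 points, 80.6%, 58.1%, 61.1% and 66.1%, in the same order. With both levels above 0 the first share was 68.2%. Agreement was 80.1% for pairs up to 200 bp and 65.7% for pairs up to 2000 bp. With gene ends of 1000 bp the share near ends was 58.6%, and with 5000 bp it was 61.3%. Merging sites within 200 bp, chosen after the data were seen, gave 67.7% for the first share, 61.6% near gene ends, 64.4% inside genes and 68.5% between genes. Leaving out X, Y and scaffolds moved no value beyond its interval, and no pairs 1 bp apart existed to merge. No paired analysis was possible because each genotype has 1 library per assay, which also leaves no replicate to omit. No coverage minimum was set, since no file used here holds coverage. Levels from few and from many reads were not told apart, although the authors' p-values depend on read numbers too.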

Other observations

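The share of 5hmC sites higher in knockout was between 61.6% (chromosome 17) and 66.9% (chromosome 1) on the autosomes and was 64.4% on X. On Y it was 74.5% (71.0 to 77.8%) of 671 sites, although the sex of the animals is not given. On X within 4 Mb of Hdac6, 35 of 62 sites were higher (56.5%; 43.3 to 69.0%), against 64.98% of the 848 sites on the rest of X.

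The bases beside a listed CpG were compared with those of all CpG in the promoter windows, as 4-letter contexts that each read the same on both strands. The context ACGT was found at 7.84% (6.04 to 9.98%) of 765 listed CpG, against 3.23% of 357779 CpG in all. The context TCGA was found at 3.92% of listed CpG, against 2.13% in all. The context GCGC was found at 8.24% (6.39 to 10.4%) of listed CpG, against 13.0% in all. The context CCGG was found at 8.10% of listed CpG, against 11.1% in all. Higher and lower sites did not differ beyond their intervals, with ACGT at 8.31% (5.92 to 11.3%) of higher and 7.19% (4.61 to 10.6%) of lower sites. Listed sites lay mostly in CpG-poor windows, as given above, and the part of base composition in these shares was not tested.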
